A study of Mus musculus with 2 samples.

Results

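The genes described are chemokine ligands of fibroblasts, a list of 10 genes looked up by symbol in a table of 16040 genes counted in sorted mouse lung fibroblasts. A row was found for 9 of them (Ccl2, Ccl7, Ccl11, Cxcl1, Cxcl5, Cxcl10, Cxcl12, Cxcl14 and Cx3cl1), and Ccl19 was not analysed here. One group had received bleomycin, a DNA-damaging drug used to produce lung fibrosis in rodents, and the other saline, both into the trachea, and lungs were taken at day 14. All mice were of the strain labelled Col1a2-EGFP, so both groups carried a green fluorescent reporter named for the type 1 collagen gene Col1a2, and the cells sorted for RNA were positive for it and negative for lineage markers. Each group is 1 library of fibroblasts from 3 mice, whose age and sex the labels do not give. Serial analysis of gene expression (SAGE) was used, which counts a short tag near the 3′ end of each transcript. The bleomycin library held 1099840 counts over 12918 genes and the saline library 1080798 counts over 12275 genes.

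Chemokines are small secreted proteins that bind heparan sulphate on cells and matrix and draw leukocytes along their gradients through G protein-coupled receptors. They are grouped by the spacing of their first cysteines into CC, CXC, C and CX3C families. Fibroblasts release inflammatory chemokines within hours of stimulation by interleukin 1, tumour necrosis factor or interferons, and make others, such as Cxcl12 and Cxcl14, without such a stimulus. Atypical chemokine receptors bind chemokines without G protein signalling and clear them, and surface proteases trim some of them.

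The tag each gene is expected to give is shown because the counts are counts of such tags, and because close family members can be told apart only where their tags differ. SOLiD SAGE libraries are cut at CATG with the enzyme NlaIII, so the site nearest the 3′ end of each protein-coding transcript was read from GENCODE M21 sequences (GRCm38), with a length of 27 bases set here. The deposited table does not give tag sequences, and CATG is in capitals.
Ccl2: CATGaatactaaaatttcttaaatgca
Ccl7: CATGtcactttaacgttgtgttagctg
Ccl11: CATGccaagccagaatgttttttatta
Cxcl1: CATGtgtgggaggctgtgtttgtatgt
Cxcl2: CATGtatttttacaaataacaaaaaat
Cxcl3: CATGaaatatcaactttgtgttaaagc
Cxcl5: CATGtttgaatatggattgctgagata
Cxcl10: CATGcccaggctgctccccacaccctc
Cxcl12, long transcripts: CATGggtgattatctcagtggtgtcac
Cxcl12, short transcript: CATGctgtaaacctcctaccgtatgtg
Cxcl14: CATGttctttctaagatgaaaagagaa
Cx3cl1: CATGctccacagaaccagttgtaggcc
Each of these tags occurred at a CATG of 0 other genes, so Cxcl1, its relatives Cxcl2 and Cxcl3 (shown for that reason), Ccl2 and Ccl7 have tags of their own. Cxcl12 has different tags for its short transcript and for its long ones. Its row in the table carries the record of the longest transcript, and no source states whether tags of the short transcript were added to it. In the transcript recorded for Cxcl10, the last CATG lies 7 bases from the end and leaves no whole tag, so the tag shown is that of the site before it, 416 bases from the end, which is the last site of another Cxcl10 transcript.

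Before scaling, the chemokine ligands together took a slightly smaller share of the bleomycin library than of the saline library, while some individual genes differed more. The 9 genes had 4776 counts in the bleomycin library, 0.434% of its total (exact Clopper-Pearson 95% interval 0.422 to 0.447), against 5009 counts in the saline library, 0.463% (0.451 to 0.476). With scaled library sizes, the ratio of bleomycin over saline was 0.964 (0.927 to 1.0), with an interval that just contains 1. Cxcl12 rose 3.4-fold, and Ccl11 fell, being 2.39-fold lower in the bleomycin library. The other 6 genes tested were not called, and Cx3cl1 was too rare to test. A gene was called when the ratio of the libraries, with 0.5 added to each count, was at least 2 in either direction and a two-sided exact binomial test on its counts gave a Benjamini-Hochberg adjusted p under 0.05 over the 9369 genes with at least 10 counts. Among those genes 8.08% were called higher and 8.52% lower in the bleomycin library, 16.6% in all, and the 2 calls among 8 chemokine ligands tested stand near that share. The median log2 ratio of the 8 was −0.37, against 0.02 over all genes tested. With 1 library per group these differences have no replicate check, the test compares the libraries and not the conditions, and intervals cover counting error only. In a bulk sample, fewer cells making a transcript cannot be told apart from less transcript per cell.

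**Figure D1:**
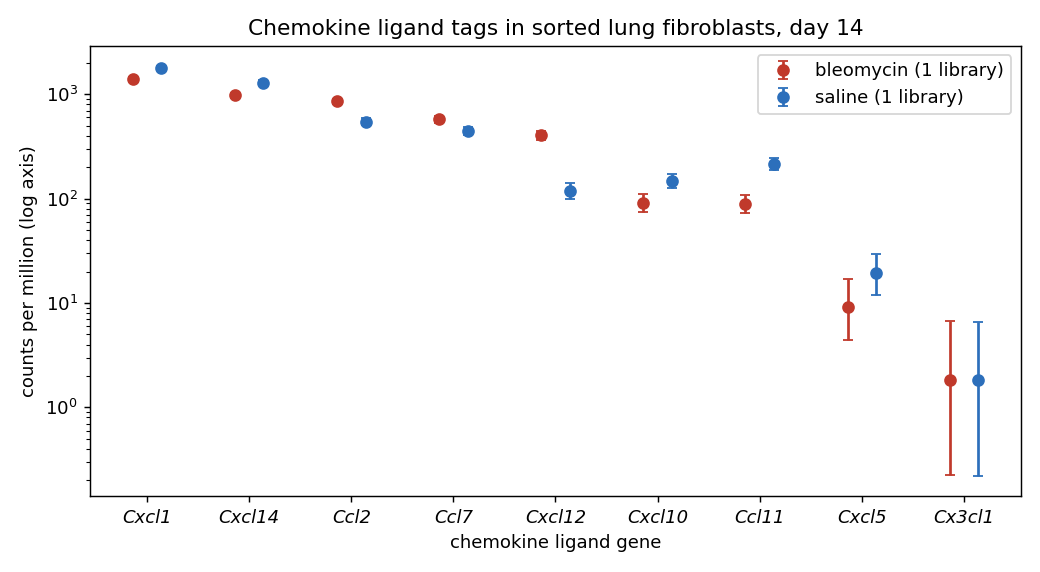
Level of each of the 9 chemokine ligand genes in CPM, counts per 1000000 counts of the scaled library (log axis), in the bleomycin library (red, left) and the saline library (blue, right), with exact Poisson 95% intervals that cover counting error. Cxcl12 stands at 406 in bleomycin and 119 in saline, Ccl11 at 89.5 in bleomycin and 213 in saline, and the intervals of Cx3cl1 and Cxcl5 are the widest.

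Without the fold rule, 7 of the 8 genes had an adjusted p under 0.05 in the exact test, 3 with more counts in bleomycin and 4 with fewer, and 27.9% of all genes tested did. The chemokine ligands are abundant, with a median of 843 counts over both libraries against 52 for all genes tested, and small differences pass more often at such counts. Of the 1250 genes with at least 262 counts, the sum of Cxcl10, which was the lowest among the 7, 64.7% passed the same threshold. That limit was taken from the 7 genes that passed and leaves out Cxcl5, so the share is a description and not a test.

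**Figure D2:**
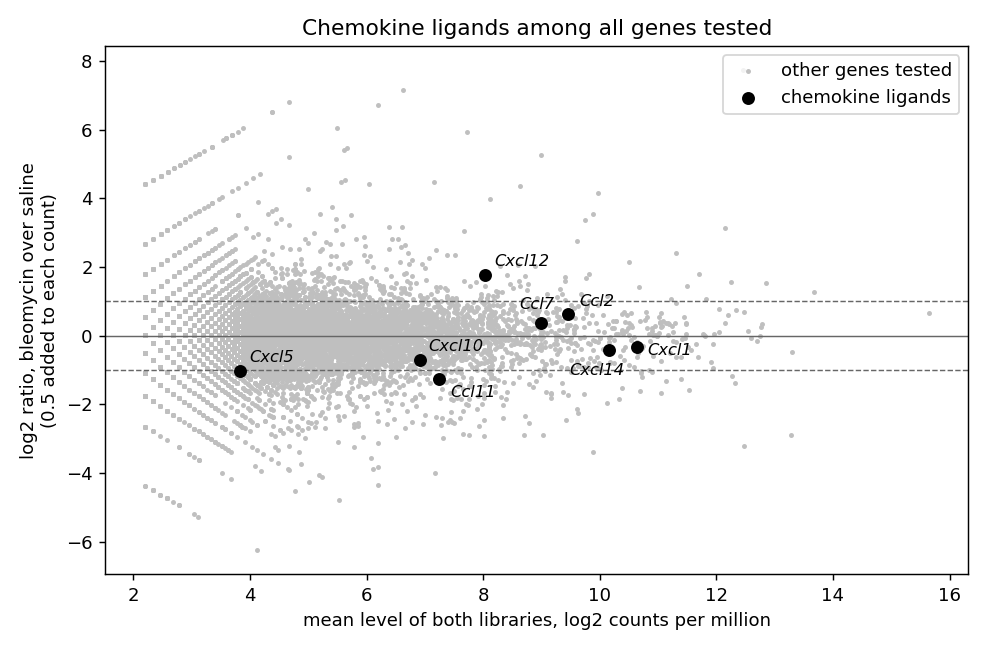
Log2 ratio of bleomycin over saline (0.5 added to each count) against the mean level of both libraries in log2 CPM, for the 9369 genes tested (grey), with 8 chemokine ligands in black and dashed lines at a 2-fold difference. Cxcl12 lies above the upper line, Ccl11 and, just, Cxcl5 below the lower one, and Cxcl5 did not pass the test.

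The markers of the sorted cells were abundant. The 6 fibroblast markers had 22119 counts in bleomycin and 14295 in saline. Col1a1 and Col1a2 were called higher, Dcn lower, and Col1a2 was also the gene named in the reporter used for sorting. Markers of several other cell types were at or near 0: neutrophil markers summed to 4 counts in bleomycin and 0 in saline over 3 genes, and lymphocyte markers to 1 in bleomycin and 4 in saline over 8. Mesothelial markers had 9 counts in bleomycin and 5 in saline, lymphatic markers 2 in bleomycin and 4 in saline, platelet markers 5 in bleomycin and 9 in saline, and alveolar type 1 markers 10 in bleomycin and 20 in saline. Airway markers had 170 counts in bleomycin and 586 in saline over 5 genes, of which 2 were tested and called lower. Most of these counts came from 1 gene, Tppp3, with 153 in bleomycin and 535 in saline.

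Cxcl12, also called stromal cell-derived factor 1, holds Cxcr4-bearing leukocytes and progenitors in tissue. It had 440 counts in the bleomycin library, against 131 in the saline library. Its level was 406 counts per 1000000 (CPM, from the scaled library sizes; 369 to 446) in bleomycin and 119 CPM (99.9 to 142) in saline, with exact Poisson intervals. The ratio was 3.4 (exact 95% interval 2.79 to 4.16; exact binomial test, adjusted p = 5.69e-39), and its interval lay above that of each of the other members of the list that were tested. By number of counts Cxcl12 ranked 357 among all genes in bleomycin and 1246 in saline. SAGE yields a tag per transcript whatever its length, so counts of different genes were set beside each other without scaling for length. Endothelium is another source of Cxcl12. Of 12 endothelial markers, 10 were tested and all 10 were called lower, with 35 counts in the bleomycin and 537 in the saline library over the 12. Kdr had 0 counts in bleomycin and 8 in saline, and Emcn was at 0 in both. The part of endothelial cells in the Cxcl12 counts was not tested.

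Cxcl14, made by fibroblasts and epithelia without inflammatory stimulus, was the second most abundant of these genes in both libraries. It had 1059 counts in the bleomycin library, against 1423 in the saline library, and a ratio of 0.753 (0.694 to 0.816). The difference was well under the 2-fold limit, so Cxcl14 was not called.

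Ccl11, or eotaxin, attracts eosinophils through Ccr3. It had 97 counts in the bleomycin library, against 234 in the saline library. The level was 89.5 CPM (72.6 to 109) in bleomycin and 213 CPM (187 to 243) in saline, and the ratio was 0.419 (0.327 to 0.533; exact binomial test, adjusted p = 1.29e-12). Markers of several cell types were lower as well, among them those of the resident fibroblasts of both alveoli and adventitia. Of 9 alveolar fibroblast markers 8 were called lower, with 2185 counts in bleomycin and 13661 in saline. Most of these counts came from 1 gene, Inmt, with 1197 in bleomycin and 11323 in saline. Of 7 adventitial markers 6 were called lower, with 1100 counts in bleomycin and 3115 in saline. Pericyte and smooth muscle markers, at 251 counts in bleomycin and 532 in saline, and endothelial markers, at 35 in bleomycin and 537 in saline, were lower too. The part of any of these cells in the difference of Ccl11 was not tested.

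Ccl2 and Ccl7 recruit monocytes through Ccr2. Ccl2 had 927 counts in the bleomycin library, against 601 in the saline library, a ratio of 1.56 (1.41 to 1.73). Ccl7 had 624 counts in bleomycin, against 491 in saline, a ratio of 1.29 (1.14 to 1.45). Both ratios had intervals above 1 and below 2, so neither gene was called, and the intervals of the pair overlap. Over both genes there were 1551 counts in bleomycin and 1092 in saline, a ratio of 1.44 (1.33 to 1.55). Monocytes and macrophages also make these chemokines. Of 15 macrophage markers 12 had a row, and their sum was 19 counts in bleomycin and 61 in saline, of which Lyz1 gave 10 in bleomycin and 55 in saline. The pan-leukocyte gene Ptprc had 1 count in bleomycin and 0 in saline, and Marco, C1qc, Emr1 and Itgax were at 0 in both. The part of these cells in the Ccl2 and Ccl7 counts was not tested.

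Cxcl1 and Cxcl5 attract neutrophils through Cxcr2. Cxcl1 was the most abundant of the chemokine ligands in both libraries, with 1518 counts in bleomycin, against 1943 in saline. Its ratio was 0.79 (0.738 to 0.845), so it was lower by less than the limit for a call. Cxcl5 had 10 counts in bleomycin, against 21 in saline, and its ratio of 0.482 had an interval that contains 1 (0.202 to 1.07; exact binomial test, adjusted p = 0.178), so a difference was not detectable at this depth. In lung, Cxcl5 is best known from alveolar type 2 cells. Markers of those cells summed to 10 counts in bleomycin and 165 in saline over 7 genes, of which Sftpc gave 7 in bleomycin and 154 in saline, and Lamp3 and Sftpd were at 0 in both. Their part in the counts of Cxcl5 was not tested.

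Cxcl2 and Cxcl3 share the receptor Cxcr2 and a gene cluster with Cxcl1, and Cxcl2 had a ratio whose interval lay apart from that of Cxcl1. Cxcl2 had 469 counts in bleomycin, against 196 in saline, and was called higher at 2.42-fold (2.04 to 2.87; exact binomial test, adjusted p = 7.45e-26). Cxcl3 had 56 counts in bleomycin, against 47 in saline, a ratio of 1.2 (0.803 to 1.82) whose interval overlaps that of Cxcl1. Summed over Cxcl1, Cxcl2, Cxcl3 and Cxcl5, the Cxcr2 ligands had 2053 counts in bleomycin and 2207 in saline, a ratio of 0.941 (0.885 to 0.999).

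Cxcl10 is induced by interferons and attracts Cxcr3-bearing T cells. It had 99 counts in the bleomycin library, against 163 in the saline library. The ratio was 0.614 (0.474 to 0.793), below 1 by more than counting error but not called. Cxcl9, another ligand of Cxcr3, had 16 counts in bleomycin, against 6 in saline, a ratio of 2.7 (1.0 to 8.41) that was not called either, and Cxcl11 was at 0 in both libraries.

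Cx3cl1, or fractalkine, is a membrane-anchored chemokine of endothelium and epithelium that binds Cx3cr1. It had 2 counts in each library, 1.84 CPM (0.223 to 6.66) in bleomycin and 1.82 CPM (0.221 to 6.59) in saline, too few to compare. Adam10 and Adam17, the proteases that shed it, had 65 and 61 counts in bleomycin, against 46 and 50 in saline, and were not called. They are named here after their values were seen.

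**Figure D3:**
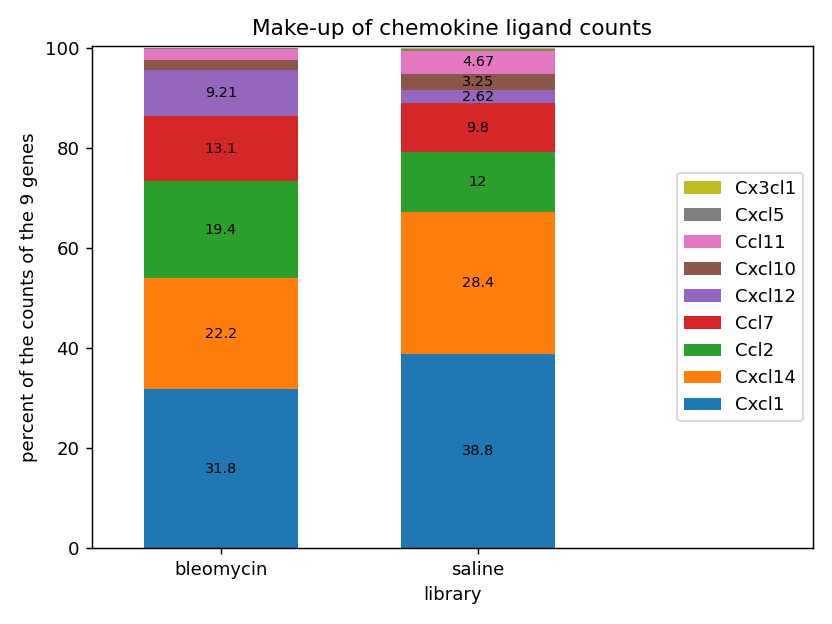
Percent of the summed counts of the 9 chemokine ligand genes held by each gene in the bleomycin library (left) and the saline library (right). Cxcl12 fills 9.21% in bleomycin and 2.62% in saline, and Cxcl1 31.8% in bleomycin and 38.8% in saline.

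The order of the chemokine ligands by counts was the same at the top of both libraries and differed below. Cxcl1, Cxcl14, Ccl2 and Ccl7 led in that order in both, each apart from the next by more than its exact Poisson interval. Cxcl12 came next in bleomycin, followed by Cxcl10 and Ccl11 at 99 and 97 counts, whose intervals overlap. In saline Ccl11 came next, followed by Cxcl10 and Cxcl12 at 163 and 131 counts, whose intervals overlap. Cxcl5 and Cx3cl1 were last in both, with intervals that overlap in bleomycin. As shares of the summed counts of the 9 genes, Ccl2 held 19.4% (18.3 to 20.6) in bleomycin and 12.0% (11.1 to 12.9) in saline, and Cxcl14 held 22.2% (21.0 to 23.4) in bleomycin and 28.4% (27.2 to 29.7) in saline. The 5 CXC genes together had 3126 counts in bleomycin and 3681 in saline, a ratio of 0.859 (0.819 to 0.901), and the 3 CC genes had 1648 counts in bleomycin and 1326 in saline, a ratio of 1.26 (1.17 to 1.35).

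Genes that lie side by side on a chromosome did not all share a ratio. In the RefSeq gene table of GRCm38, Ccl2, Ccl7, Ccl11, Ccl12, Ccl8 and Ccl1 follow each other in that order on chromosome 11. Ccl2 and Ccl7 had ratios of 1.56 and 1.29, and the next gene, Ccl11, had 0.419 with an interval apart from both. Beyond it Ccl12 was at 0 in both libraries, Ccl8, a monocyte attractant, had 30 counts in bleomycin against 40 in saline, and Ccl1 had 0 in bleomycin and 1 in saline. On chromosome 5, Cxcl1 and Cxcl2 are neighbours, and the interval of Cxcl1 lay below 1 while that of Cxcl2 lay above 2.

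Most other chemokine ligands were rare or at 0. Of 14 further CC ligands with a row, 2 reached 10 counts, and neither was called: Ccl8, and Ccl27a, known from skin epithelium, with 18 counts in bleomycin against 32 in saline. Of 9 further CXC and C ligands, 5 were tested and Cxcl2 was called higher. Cxcl16, a membrane-anchored ligand, had 177 counts in bleomycin, against 183 in saline, a ratio of 0.978 (0.791 to 1.21). Cxcl13, a B cell attractant, had 12 counts in bleomycin, against 3 in saline, a ratio of 4.05 whose interval reaches close to 1 (1.09 to 22.3; exact binomial test, adjusted p = 0.0684). Counts of 3 and 6 in saline for Cxcl13 and Cxcl9 leave the size of these ratios uncertain.

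**Figure D4:**
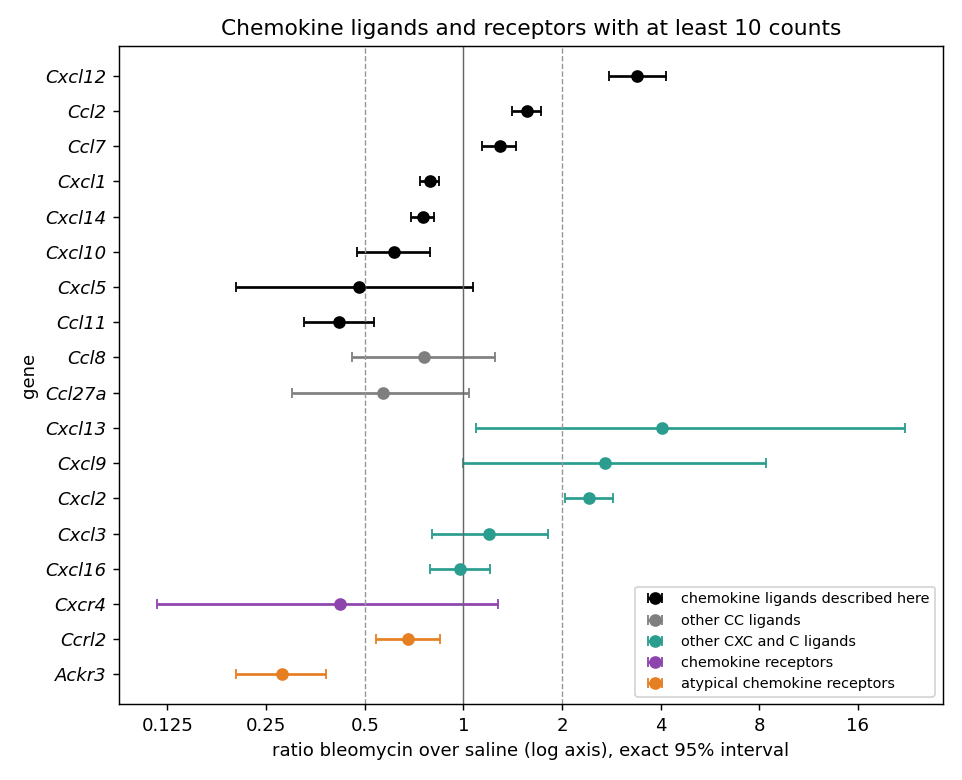
Ratio of bleomycin over saline (log axis) with exact 95% intervals for the chemokine ligands and receptors with at least 10 counts, grouped by colour, with dashed lines at 0.5 and 2. The intervals of Cxcl12 and Cxcl2 lie above 2, that of Ackr3 lies below 0.5, and those of Cxcl13 and Cxcr4 are among the widest.

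Among receptors, the decoy of Cxcl12 fell and most signalling receptors were barely detected. Ackr3 (Cxcr7 in the table), an atypical receptor that binds and clears Cxcl12, had 54 counts in bleomycin, against 195 in saline. It was 3.57-fold lower (2.63 to 4.92; exact binomial test, adjusted p = 4.07e-18). Cxcr4, the signalling receptor of Cxcl12, had 5 counts in bleomycin, against 12 in saline, a ratio of 0.421 (0.116 to 1.28), and was the only one of the 14 signalling chemokine receptors with a row to reach 10 counts over both libraries. Ccr2, Cxcr3 and Cx3cr1 were among 8 receptors at 0 in both libraries. Ccrl2, an atypical receptor that presents chemerin, had 134 counts in bleomycin, against 200 in saline, a ratio of 0.678 (0.54 to 0.848), and was not called. Ackr4, which clears Ccl19, had 0 counts in bleomycin and 7 in saline, too few to test. Ackr3 is found on endothelium as well as on fibroblasts. The endothelial markers, at 35 counts in bleomycin and 537 in saline, moved the same way. So did the alveolar fibroblast, adventitial fibroblast, and pericyte and smooth muscle markers given above. Their part in the fall of Ackr3 was not tested.

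Genes for proteins that trim, shed or hold chemokines had 12 of 13 tested, with 3 called higher and 1 lower and a median log2 ratio of 0.29, against 8.08% higher, 8.52% lower and a median of 0.02 over all genes tested. Sdc1, a heparan sulphate proteoglycan of the cell surface, had 136 counts in bleomycin, against 6 in saline, and Ext1, an enzyme that builds heparan sulphate chains, had 43 in bleomycin, against 14 in saline. Sdc1 was 22.9-fold higher (10.3 to 63.6) and Ext1 3.11-fold higher (1.67 to 6.15). Sdc4, another such proteoglycan with more counts, had 670 in bleomycin, against 868 in saline. Its ratio was 0.781 (0.705 to 0.864), and it was not called. Of the 12 genes tested, 8 had a log2 ratio above 0 and 4 below. Mmp14, a membrane metalloprotease gene chosen after seeing its values, was 2.06-fold higher (1.79 to 2.37). Dpp4, also on the adventitial marker list, is the peptidase that inactivates Cxcl12, Ccl11 and Cxcl10 by cutting their amino terminus, and had 0 counts in bleomycin and 13 in saline. Dpp4 was 4.28-fold lower when a floor of 3 counts was set in the bleomycin library. The exact limit allows a smaller difference, down to 3.01-fold lower.

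**Figure D5:**
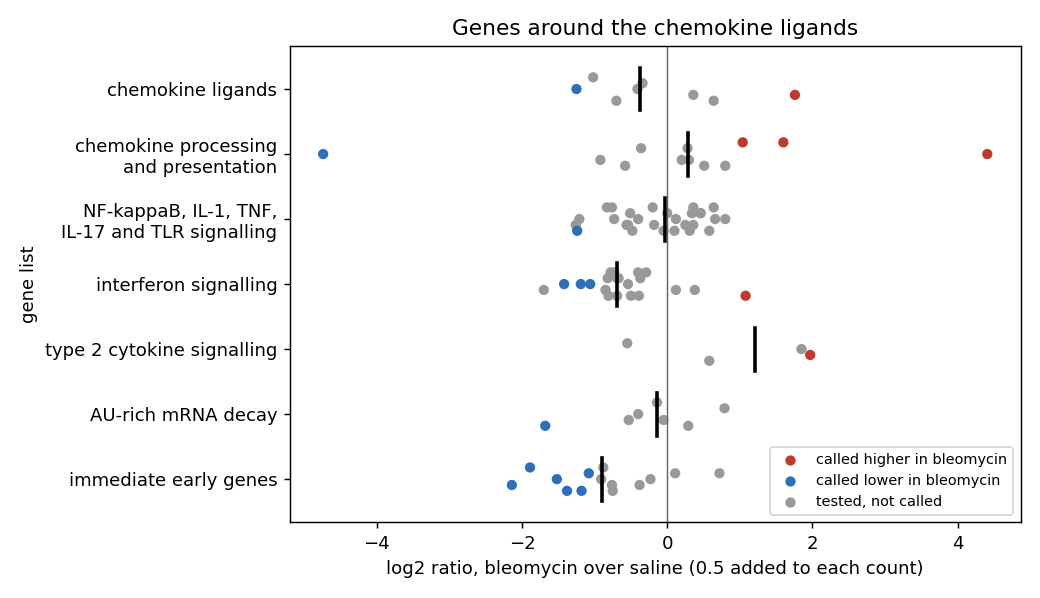
Log2 ratio of bleomycin over saline (0.5 added to each count) for the tested genes of 7 lists, each point a gene, red called higher, blue called lower, grey not called, with a black bar at the median. Medians of the interferon and immediate early lists, −0.69 and −0.90, lie left of 0.

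Among genes that act on chemokine transcription and message decay, most of the lower calls were on the immediate early list. The counts of each list stand beside 8.08% called higher and 8.52% called lower over all genes tested. Of 28 tested genes of NF-kappaB and of interleukin 1, tumour necrosis factor, interleukin 17 and Toll-like receptor signalling, 1 was lower and 0 higher, with a median of −0.02. The lower gene was Nfkbiz, an inducible cofactor of NF-kappaB, with 69 counts in bleomycin against 166 in saline, a ratio of 0.42 (0.313 to 0.56). Without the fold rule, 7 of the 28 had an adjusted p under 0.05 in the exact test, against 27.9% of all genes tested. Of the 7, 6 had fewer counts in bleomycin and 1 had more. Over the 33 genes of the list there were 2373 counts in bleomycin and 3163 in saline, a ratio of 0.759 (0.719 to 0.8). Nfkbia, named after its values were seen, gave 777 of these in bleomycin and 1303 in saline. Of the 28 genes tested, 14 had a log2 ratio below 0 and 14 above. Il1b and Tnf, inducers of chemokines and named after their values were seen, had 5 and 1 counts in bleomycin, against 1 and 0 in saline. Of 21 interferon signalling genes, 3 were lower and 1 higher, with a median of −0.69. Without the fold rule, 11 of the 21 had an adjusted p under 0.05 in the exact test, 10 with fewer counts in bleomycin and 1 with more. The 25 genes of this list had 1733 counts in bleomycin and 2712 in saline, a ratio of 0.646 (0.608 to 0.687). Irf8, a transcription factor, stood at 34.1 CPM in bleomycin against 92.1 CPM in saline (ratio 0.37, 0.247 to 0.545). The interferon-induced Isg15 had 75 counts in bleomycin against 174 in saline (ratio 0.436, 0.328 to 0.575). Jak2, a cytokine receptor kinase, was 2.12-fold higher (1.51 to 3.0).

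Type 2 cytokines induce Ccl11 in fibroblasts, and 1 of the 4 genes tested on that list was called. The median log2 ratio of the 4 was 1.22. It lies between Il4ra, with 268 counts in bleomycin and 181 in saline, and Il2rg, with only 12 and 3. Neither was called. Summed over the 4 genes there were 436 counts in bleomycin and 318 in saline, a ratio of 1.39 (1.2 to 1.61). Il13ra1, a chain of the interleukin 13 receptor, had 79 counts in bleomycin, against 20 in saline, and was 3.99-fold higher (2.42 to 6.89). Stat6, the 1 gene of the 4 with a log2 ratio below 0, had 77 counts in bleomycin, against 114 in saline, and was not called. The cytokine genes Il4 and Il13 were not analysed here. The part of type 2 signalling in the difference of Ccl11 was not tested. Of 7 genes that govern decay of AU-rich messages, the class to which several chemokine messages belong, 1 was lower and 0 higher, with a median of −0.14. Zfp36, or tristetraprolin, which speeds that decay, had 1097 counts in bleomycin, against 3551 in saline, and was 3.2-fold lower (2.99 to 3.43). Immediate early genes, which tissue dissociation can induce along with Ccl2, Ccl7 and Cxcl1, had 6 of 14 called lower and 0 higher, with a median of −0.90 and 13725 counts in bleomycin, against 29268 in saline. Nr4a1, an orphan nuclear receptor, was 4.42-fold lower (3.91 to 5.02), and Atf3, a stress-induced transcription factor, 3.74-fold lower (2.59 to 5.53). Of the chemokines named with them, Cxcl1 (ratio 0.79) had fewer counts in bleomycin, as the immediate early genes did, while Ccl2 (1.56) and Ccl7 (1.29) had more. The part of dissociation in any chemokine count was not tested.

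Promoter sequences, 300 bases around the start site, were at hand for 6 of the 10 genes from RefSeq (GRCm38.p6): Ccl19, Cxcl1, Cxcl10, Cxcl12, Cxcl14 and Cx3cl1. Those of Cxcl1 and Cxcl10, inflammatory genes with fewer counts in bleomycin, and of Cxcl12, the gene called higher, are shown 5′ to 3′ on the strand of the gene, with matches to the NF-kappaB consensus in capitals.
Cxcl1, chr5:90890995-90891294, plus strand: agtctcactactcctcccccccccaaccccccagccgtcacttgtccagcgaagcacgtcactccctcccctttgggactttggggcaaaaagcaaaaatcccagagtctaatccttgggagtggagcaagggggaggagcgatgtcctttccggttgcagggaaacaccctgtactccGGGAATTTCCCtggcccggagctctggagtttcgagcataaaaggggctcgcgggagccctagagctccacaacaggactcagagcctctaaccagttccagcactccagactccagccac
Cxcl10, chr5:92348840-92349139, minus strand: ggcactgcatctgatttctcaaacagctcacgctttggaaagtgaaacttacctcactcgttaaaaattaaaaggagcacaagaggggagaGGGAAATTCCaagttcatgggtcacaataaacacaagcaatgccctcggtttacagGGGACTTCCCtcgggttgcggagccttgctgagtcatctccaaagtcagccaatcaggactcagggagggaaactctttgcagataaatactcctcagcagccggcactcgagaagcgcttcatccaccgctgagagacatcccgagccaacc
Cxcl12, chr6:117168285-117168584, plus strand: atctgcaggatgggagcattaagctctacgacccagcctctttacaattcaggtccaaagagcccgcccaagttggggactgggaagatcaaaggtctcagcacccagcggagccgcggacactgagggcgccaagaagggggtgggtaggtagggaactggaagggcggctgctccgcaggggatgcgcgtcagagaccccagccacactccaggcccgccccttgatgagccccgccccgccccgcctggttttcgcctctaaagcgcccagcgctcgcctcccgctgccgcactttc
The NF-kappaB consensus was searched on both strands and was found in 4.51% of all 32851 promoters of this length. Cxcl1 held 2 overlapping matches, 1 on each strand, and Cxcl10 held 2 separate ones. Cxcl14, which also had fewer counts in bleomycin, held 0, as did Ccl19, Cxcl12 and Cx3cl1. No promoter was at hand for Ccl2 and Ccl7, which had more counts in bleomycin. An interferon response pattern, GAAA followed after 2 bases by GAAA, was searched on both strands and occurred in 3.44% of promoters, and Cxcl10, Cxcl14 and Ccl19 held it. The AP-1 pattern TGANTCA occurred in 7.81%, and Cxcl10 held it. TATAAA, searched with the others, occurred in 13.6%, and Cx3cl1 held it. None of these patterns was found in the window of Cxcl12. A match is a description of these letters and not evidence that a factor binds there.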

How the data were processed

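The deposited table gives a whole-number tag count per gene for 1 bleomycin and 1 saline library of sorted cells. Per the labels' protocols, lungs were dissociated with collagenase, dispase and DNase before sorting, and SOLiD SAGE libraries were made. Per the submitters' processing notes, BWA (0.6.2) and the build mm9 are named, without saying what each was used for. Tag assignment, strand and any scaling before deposit are not stated, and the exact test assumes unscaled counts. A row without a symbol was left out, and 21 symbols turned into dates were recovered from their descriptions.

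Library sizes were scaled with TMM factors (0.986 for bleomycin, 1.01 for saline; edgeR 4.0.16, R 4.3.3). A quasi-likelihood fit has no residual degrees of freedom with 1 library a group, so the exact binomial test given with the results was used. A single count is 0.922 CPM in bleomycin and 0.912 CPM in saline. Where a gene has 0 counts, a floor of 3 counts was set, which is 2.77 CPM in bleomycin and 2.74 CPM in saline. The procedure was tested on simulated data. Alternatives were DESeq2 1.42.0 size factors, total counts, no minimum or a minimum of 50 counts, Bonferroni adjustment, a ratio of at least 3, and 5 added to each count. Python 3.11.15 and scipy 1.17.1 were used.

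The 10 genes and all other lists were chosen with earlier results of these data known. Of 263 list symbols, 236 had a row, with older symbols matched through RefSeq. Named genes were the 10 chemokine ligands, other ligands and receptors with at least 10 counts, and of each further list up to 2 genes called in each direction with the largest change, or the most abundant where none was called. Other genes, among them ligands and receptors under 10 counts and single markers of other cell types, were chosen after their values were seen. Some genes of these lists are not reported here by name.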

Additional observations from a re-analysis of the deposited data

How the results depend on the processing

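Cxcl12 was called higher under each of the 7 alternatives, with log2 ratios of 1.72 to 1.76. Ccl11 was called lower under 6 of the 7, and with a ratio of at least 3 required, 0 chemokine ligands were called lower. Of 63 values of the 9 genes under alternatives, 62 kept their call or lack of one, and the exception is that of Ccl11. The untested log2 ratio of Cx3cl1, 0.02, became 0.00 with DESeq2 size factors and −0.03 with total counts. Requiring a ratio of at least 3 left 3 genes of the surrounding lists higher and 5 lower, from 6 and 13, and left 443 of all genes higher and 445 lower, from 757 and 798. Over all genes, 396 were higher and 484 lower when at least 50 counts were required, and 288 were higher and 333 lower after Bonferroni adjustment, which are both stricter by construction. Each group is 1 library, so no replicate could be left out. No paired analysis was possible because each group has 1 library and the labels carry no replicate number. Depth limits Cxcl5, with 10 counts in bleomycin and 21 in saline, and Cx3cl1, with 2 in each.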

Other observations

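The table holds a further entry whose description names a chemokine and which no list held, a predicted gene described as resembling Ccl21a (LOC100041593), chosen after its values were seen. It had 29 counts in the bleomycin library, against 39 in the saline library, a ratio of 0.752 (exact 95% interval 0.448 to 1.25), and was not called. Of 9 markers of pericytes and smooth muscle, 5 were called lower and 0 higher, with 251 counts in bleomycin and 532 in saline.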
